A study of Mus musculus with 9 samples.

Results

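The glucocorticoid response genes described here are 10 transcripts chosen by name: the receptor gene Nr3c1, the hormone-activating enzyme gene Hsd11b1, 6 genes that the receptor is known to induce in many cell types (Fkbp5, Tsc22d3, Zbtb16, Sgk1, Errfi1, and Ddit4), and the metallothionein genes Mt1 and Mt2, which respond to glucocorticoids and to metals. All 10 were found among the 43346 genes of the deposited table, and all 10 were among the 16877 genes abundant enough to test. The libraries came from lung fibroblasts of Col1a1-GFP transgenic mice, in which the collagen I promoter drives GFP, so that the reporter that selected the cells is itself a readout of collagen transcription. Cells that were GFP+, CD45-, CD31-, and EpCAM- were sorted from aged mice (72 weeks in the sample labels, 18 months in the text of the study). Both groups carried the reporter and received 1 intratracheal instillation 30 days before the sort, of saline in aged sham (n = 4) or of bleomycin, which injures the lung and causes fibrosis, in aged bleo (n = 5). RNA was sequenced in bulk from polyadenylated transcripts, so a smaller share of one kind of fibroblast and less RNA per cell cannot be told apart.

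Glucocorticoids (corticosterone in mice) enter cells and bind the glucocorticoid receptor, which a chaperone complex of heat shock protein 90 and immunophilins holds ready in the cytoplasm. The loaded receptor moves to the nucleus, binds palindromic response elements, and raises transcription of its targets, among them several of its own brakes, while it lowers that of many cytokine genes. The enzyme made from Hsd11b1 regenerates active hormone from its inert 11-keto form inside the cell, and lung mesenchyme is a known site of this conversion. Induced genes such as Fkbp5 and Tsc22d3 are often read as a measure of hormone exposure, but most of them also answer to growth factors, oxygen, nutrients, or metals.

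Levels are given as CPM, read counts scaled to the size of the library with TMM normalization, and are compared between genes only as FPKM, which also divides by transcript length. The counts summed to 49921946 to 62370512 per aged sham library and 53833507 to 68260600 per aged bleo library. Differences were tested with edgeR's quasi-likelihood test, in which FDR is the Benjamini-Hochberg adjusted p-value over all 16877 genes, and a gene was called when its FDR was under 0.10 and its fold change over 1.5. Col1a1 lay between 3649 and 4559 CPM in aged sham and between 13560 and 25954 CPM in aged bleo. Of the genes for the proteins sorted against, Epcam was at no more than 1.201 CPM and Pecam1 at no more than 6.70 CPM in any library, but other transcripts of sorted-out cells were present. The alveolar epithelial gene Sftpc reached 57.9 CPM, and Ager was at 5.30 to 32.8 CPM in the uninjured and 1.34 to 2.74 CPM in the injured libraries. The myeloid gene Lyz2 reached 1132 CPM, Csf3r 370.1 CPM, and S100a9 359 CPM. Ptprc, which encodes CD45, was highest in aged sham 4 (169 CPM) and aged bleo 4 (183 CPM), against 30.6 to 92.4 CPM in the other libraries. No leukocyte, endothelial, or epithelial marker list was at 0 throughout. Every aged sham library shares with aged bleo 4 a name ending of 4, whereas aged bleo 1 to 3 carry a 5 and aged bleo 5 a 6; the meaning of the ending is not stated.

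Of the 10 genes, 6 were called, 2 higher (Fkbp5 and Ddit4) and 4 lower (Zbtb16, Errfi1, Mt1, and Mt2) in aged bleo. Over all genes tested, 23.8% were called in either direction, 12.3% higher and 11.5% lower. The 10 genes were chosen with earlier results of these data known, so their share is not that of an independent choice. Every aged bleo library was above every aged sham library for 3 of the genes (Fkbp5, Sgk1, and Ddit4) and below for 4 (Nr3c1, Errfi1, Mt1, and Mt2), where each of these separations was seen for 16.1% of all genes tested. The median log2 fold change of the 10 genes was -0.41, with a range from -1.46 to 2.17, against a median of 0.01 over all genes tested. Induced targets stood at both ends of this range, with Ddit4 at the top and Mt1 at the bottom.

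**Figure D1:**
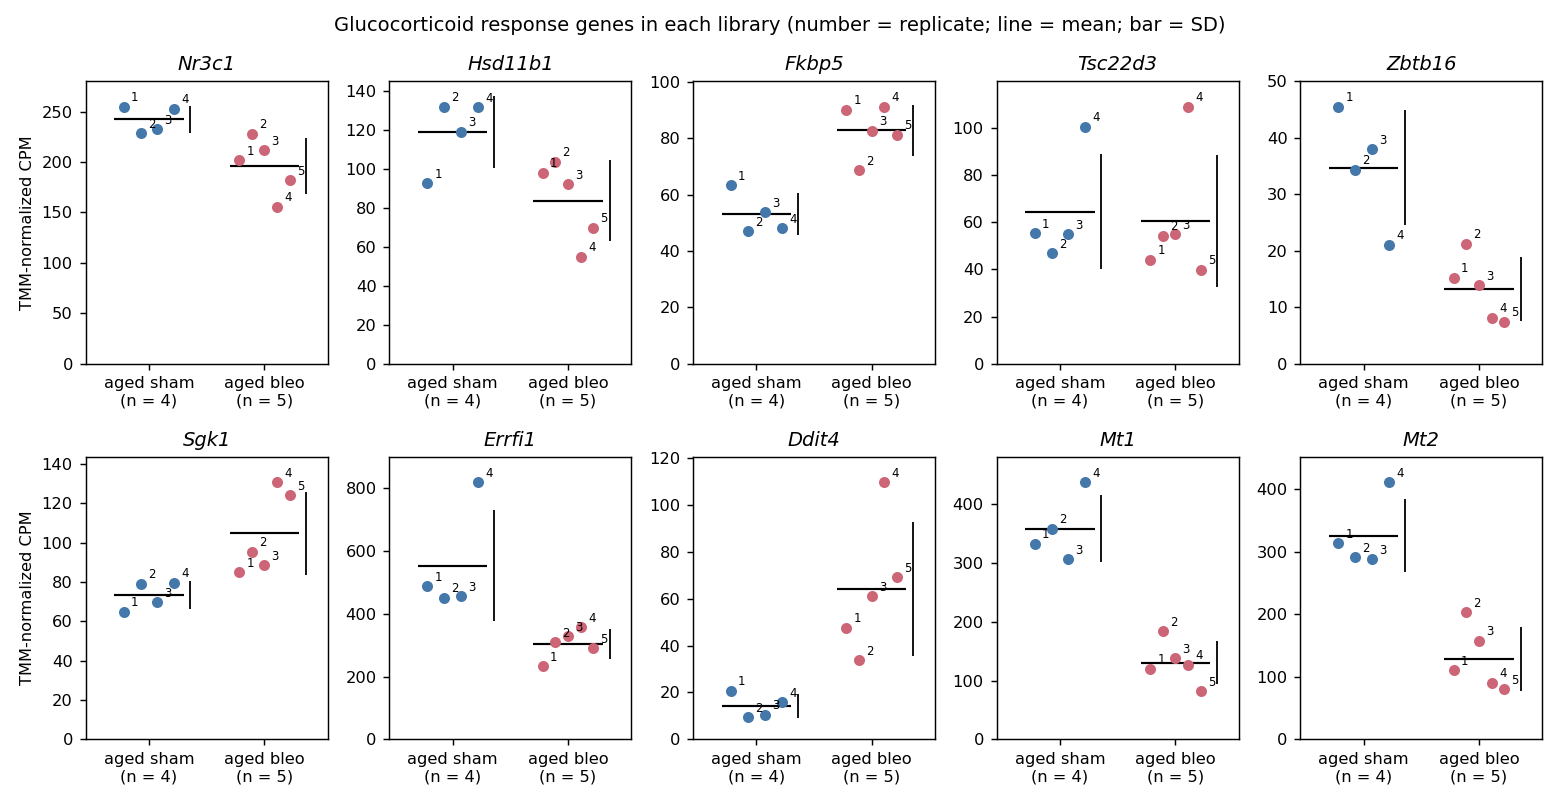
TMM-normalized CPM of each of the 10 genes in each library, with the y axis starting at 0; points are single libraries numbered by replicate, lines are group means, and vertical bars are the SD. Aged bleo lies wholly above aged sham for Fkbp5, Sgk1, and Ddit4 and wholly below it for Nr3c1, Errfi1, Mt1, and Mt2, while Tsc22d3 has 1 high library in either group (aged sham 4 at 100.4 CPM, aged bleo 4 at 108.9 CPM).

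Nr3c1 (ENSMUSG00000024431, chromosome 18, 39410545 to 39491301 on the minus strand of GRCm38) encodes the glucocorticoid receptor. It was at 255, 229, 233, and 253 CPM in aged sham 1 to 4 and at 202, 228, 212, 156, and 182 CPM in aged bleo 1 to 5. The lowest aged sham and the highest aged bleo library nearly touched, and aged bleo 4 and aged bleo 5 were lowest. Group means were 242 ± 13.5 CPM (SD, n = 4) in aged sham and 196 ± 28.0 CPM (SD, n = 5) in aged bleo, a log2 fold change of -0.31 (SE 0.11) with an edgeR FDR of 0.058. Without aged bleo 4 and aged bleo 5 it was -0.19. The receptor transcript thus passed the FDR threshold but not the fold threshold, being 1.24-fold lower, and was not called. Its spread between mice of the same group was small, with a coefficient of variation of 5.58% in aged sham and 14.3% in aged bleo.

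Hsd11b1 (ENSMUSG00000016194, chromosome 1, 193221634 to 193264075, minus strand) encodes the reductase that turns 11-dehydrocorticosterone into corticosterone. Aged sham 1 to 4 had 92.9, 132, 119, and 132 CPM, and aged bleo 1 to 5 had 98.1, 104, 92.4, 54.95, and 69.96 CPM. Aged sham 1 lay within the aged bleo range, and aged bleo 4 and aged bleo 5 were again the lowest. The log2 fold change was -0.51 (SE 0.19, edgeR FDR 0.0665), which was not called at 1.42-fold. It was called without aged sham 1 (-0.61) or without aged bleo 2 (-0.59), and without both aged bleo 4 and aged bleo 5 it was -0.28 with an FDR of 0.12. Hsd11b1 overlaps Lamb3 and 2 other annotated genes, the most abundant of them at a mean of 278 counts per library, and whether reads were assigned by strand is not stated.

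Aged bleo 4 and aged bleo 5, where both genes were lowest, were also lowest for the summed CPM of 6 adventitial fibroblast genes (1348 and 1538 CPM, against 2989 to 3861 CPM in aged bleo 1 to 3 and 6288 to 7644 CPM in aged sham), 5 of which were called lower. The same held for 6 alveolar fibroblast genes, at 1011 and 1345 CPM against 2112 to 2984 CPM in the other aged bleo and 2720 to 4392 CPM in the aged sham libraries, with 1 called higher and 2 lower. Over all genes tested, 12.3% were called higher and 11.5% lower. The part of these fibroblast marker shifts in the levels of Nr3c1 and Hsd11b1 was not tested.

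Fkbp5 (ENSMUSG00000024222, chromosome 17, 28399095 to 28517524, minus strand) encodes FKBP51, an immunophilin that lowers the affinity of the receptor for its hormone and is one of the most widely induced receptor targets. It was at 63.4, 47.0, 53.9, and 48.2 CPM in aged sham 1 to 4 and at 90.3, 68.8, 82.7, 91.3, and 81.3 CPM in aged bleo 1 to 5. The groups did not overlap, and the nearest pair was aged sham 1 and aged bleo 2. Fkbp5 rose from 53.1 ± 7.49 CPM (SD, n = 4) to 82.9 ± 9.02 CPM (SD, n = 5), a log2 fold change of 0.64 (SE 0.11, edgeR FDR 0.003). At 1.56-fold the change stood close to the fold threshold. It remained called with any 1 library left out (0.59 to 0.74), but not without both aged sham 4 and aged bleo 4, where it was 0.54.

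Tsc22d3 (ENSMUSG00000031431, chromosome X, 140539528 to 140600659, minus strand) encodes GILZ, an anti-inflammatory leucine zipper protein and a second widely used target. It was at 55.3, 46.9, 54.8, and 100.4 CPM in aged sham 1 to 4 and at 44.1, 54.3, 54.8, 108.9, and 39.8 CPM in aged bleo 1 to 5. Aged sham 4 and aged bleo 4 stood far above the others, and the remaining libraries of the groups overlapped, at 46.9 to 55.3 CPM in aged sham and 39.8 to 54.8 CPM in aged bleo, with aged bleo 1 and aged bleo 5 below every aged sham library. The log2 fold change was -0.09 (SE 0.33, edgeR FDR 0.85). It was 0.21 without aged sham 4, -0.42 without aged bleo 4, and -0.14 without both, and was not called in any of these. Of these commonly read markers of receptor activity, Fkbp5 was thus called and Tsc22d3 was not, and the difference between their changes was not tested.

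The libraries with the high Tsc22d3 levels were those with the most leukocyte transcripts. The summed CPM of 6 pan-leukocyte genes was highest in aged sham 4 (376 CPM) and aged bleo 4 (577 CPM), against 99.6 to 198 CPM in the other aged sham and 105 to 160 CPM in the other aged bleo libraries. Of these 6 genes, 1 (Laptm5) was called higher and none lower, against 12.3% and 11.5% of all genes tested. A list of 7 neutrophil genes, of which 6 were tested and none called, was likewise highest in aged sham 4 (937 CPM) and aged bleo 4 (841 CPM), with a range from 83.3 to 421 CPM elsewhere. Tsc22d3 is abundant in leukocytes as well as in fibroblasts, and the part of these transcripts in its level was not tested.

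**Figure D2:**
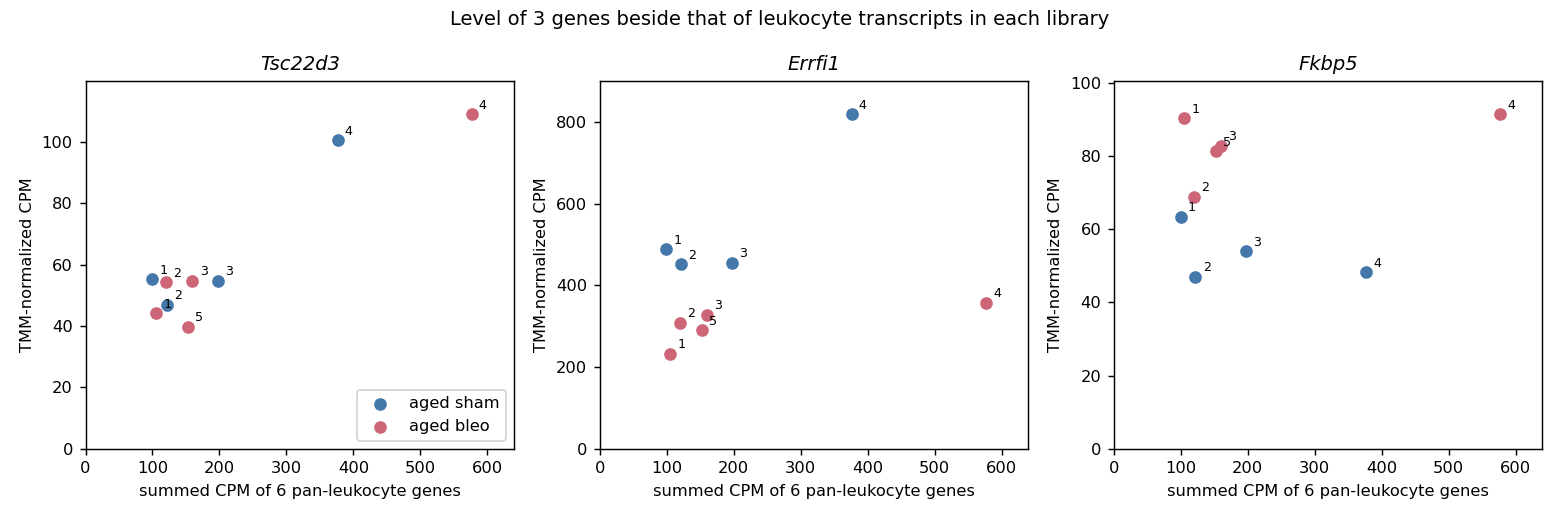
TMM-normalized CPM of Tsc22d3, Errfi1, and Fkbp5 (y axes) against the summed CPM of 6 pan-leukocyte genes (x axis) in the 9 libraries, each point being 1 library numbered by replicate. The libraries farthest to the right, aged sham 4 at 376 and aged bleo 4 at 577 CPM, hold the highest Tsc22d3 levels, and aged sham 4 holds the highest Errfi1 level (819 CPM), while Fkbp5 separates the groups on either side of the x range.

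Zbtb16 (ENSMUSG00000066687, chromosome 9, 48654311 to 48835945, minus strand) encodes the zinc finger repressor PLZF, which is induced by glucocorticoids in many mesenchymal cells. It was at 45.5, 34.4, 38.0, and 21.1 CPM in aged sham 1 to 4 and at 15.2, 21.3, 14.0, 8.17, and 7.43 CPM in aged bleo 1 to 5. The groups overlapped by a single pair, as aged bleo 2 was just above aged sham 4. Zbtb16 fell from 34.7 ± 10.2 CPM (SD, n = 4) to 13.2 ± 5.67 CPM (SD, n = 5), with a log2 fold change of -1.40 (SE 0.33, edgeR FDR 0.011), or 2.63-fold. It was called with every library left out in turn (-1.63 to -1.24). The direction was opposite to that of Fkbp5 in the same mice.

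Sgk1 (ENSMUSG00000019970, chromosome 10, 21882184 to 21999903, plus strand) encodes a kinase that regulates ion transport and survival and is induced by glucocorticoids, mineralocorticoids, serum, and osmotic stress. Its RefSeq gene models start at several places, and the window before one of them carries a receptor binding motif. The 250 bases before the start at 21993890 (chr10:21993640-21993889, plus strand, RefSeq on GRCm38.p6) are printed because they hold the only perfect element found for these genes, which is in capitals and begins 189 bases before the start.
Sgk1: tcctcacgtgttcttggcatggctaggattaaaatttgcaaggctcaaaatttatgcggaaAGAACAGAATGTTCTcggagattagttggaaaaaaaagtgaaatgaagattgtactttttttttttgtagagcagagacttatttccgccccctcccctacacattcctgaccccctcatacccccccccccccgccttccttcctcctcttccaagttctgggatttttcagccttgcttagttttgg
The element is the half-site AGAACA, any 3 bases, and the half-site TGTTCT, so the half-sites counted below include those within it.

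Sgk1 was at 64.9, 79.1, 69.8, and 79.6 CPM in aged sham 1 to 4 and at 84.9, 95.3, 88.7, 131, and 124 CPM in aged bleo 1 to 5. The injured libraries lay above the uninjured ones without overlap, with aged bleo 4 and aged bleo 5 well above the other injured libraries. The means were 73.4 ± 7.20 CPM (SD, n = 4) and 105 ± 21.1 CPM (SD, n = 5), and the log2 fold change of 0.51 (SE 0.15, edgeR FDR 0.024) stood under the fold threshold at 1.43-fold, so Sgk1 was not called. Without aged bleo 4 and aged bleo 5 it was 0.28 (FDR 0.041).

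Errfi1 (ENSMUSG00000028967, chromosome 4, 150853919 to 150868892, plus strand) encodes MIG6, a feedback inhibitor of the EGF receptor that responds to glucocorticoids and to growth factors. It was at 488, 452, 456, and 819 CPM in aged sham 1 to 4 and at 233, 309, 329, 358, and 290 CPM in aged bleo 1 to 5. Each aged bleo library was below each aged sham library, and aged sham 4 was far above the other uninjured libraries. Errfi1 fell from 554 ± 177 CPM (SD, n = 4) to 304 ± 46.8 CPM (SD, n = 5), a log2 fold change of -0.87 (SE 0.20, edgeR FDR 0.011), or 1.82-fold. Without aged sham 4 the log2 fold change was -0.62, still called, and without both aged sham 4 and aged bleo 4 it was -0.70. Among the libraries whose names end in 4 alone, with aged bleo 4 as the only injured library, it was -0.62 with an FDR of 0.244 and not called. As for Tsc22d3, the library with the high value was the aged sham library with the most leukocyte transcripts (376 CPM), and their part in the value was not tested.

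Ddit4 (ENSMUSG00000020108, chromosome 10, 59949675 to 59951770, minus strand) encodes REDD1, an inhibitor of mTORC1 that responds to glucocorticoids, hypoxia, and nutrient stress. Aged sham 1 to 4 had 20.8, 9.53, 10.6, and 16.0 CPM, and aged bleo 1 to 5 had 47.6, 33.8, 60.9, 109.5, and 69.0 CPM. The groups did not overlap, and the lowest injured library, aged bleo 2, was still above the highest uninjured one, aged sham 1. Ddit4 rose from 14.2 ± 5.20 CPM (SD, n = 4) to 64.2 ± 28.6 CPM (SD, n = 5), a log2 fold change of 2.17 (SE 0.37, edgeR FDR 0.003), or 4.51-fold, the greatest change of the 10 genes. Its value stayed between 1.88 and 2.42 with any 1 library left out and was 1.73 without aged bleo 4 and aged bleo 5. Aged bleo mice differed among themselves in this gene, with a coefficient of variation of 44.6%.

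Mt1 (ENSMUSG00000031765, chromosome 8, 94179089 to 94180325, plus strand) and Mt2 (ENSMUSG00000031762, chromosome 8, 94172618 to 94173567, plus strand) encode small cysteine-rich proteins that bind zinc and copper and buffer oxidants. They lie side by side, are closely similar in sequence, and are induced through metal response elements by the zinc sensor MTF-1 and, for this locus, through glucocorticoid response elements that lie farther away than the windows shown here. The 250 bases before the RefSeq start of Mt1 (chr8:94178839-94179088, plus strand, GRCm38.p6) and of Mt2 (chr8:94172368-94172617, plus strand) are printed to show the metal response element cores in capitals, each written TGCACNC or TGCGCNC or as its reverse complement.
Mt1: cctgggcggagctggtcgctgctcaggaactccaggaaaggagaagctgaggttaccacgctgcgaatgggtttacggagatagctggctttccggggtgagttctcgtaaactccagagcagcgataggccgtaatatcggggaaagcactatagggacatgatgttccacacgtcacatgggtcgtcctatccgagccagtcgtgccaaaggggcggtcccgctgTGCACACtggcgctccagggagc
Mt2: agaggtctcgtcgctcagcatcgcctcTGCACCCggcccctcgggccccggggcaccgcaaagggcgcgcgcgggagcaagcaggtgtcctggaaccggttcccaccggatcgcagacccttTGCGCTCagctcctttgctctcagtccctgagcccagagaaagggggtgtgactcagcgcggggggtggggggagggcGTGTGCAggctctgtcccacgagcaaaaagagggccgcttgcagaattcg
The Mt1 stretch holds 1 core, 23 bases before the start, and the Mt2 stretch holds 3, at 223, 128, and 50 bases before the start. Further cores begin 2 and 20 bases after the start of Mt1 and 4 bases after that of Mt2, which gives 3 and 4 per window of 300 bases.

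Mt1 was at 333, 358, 306, and 437 CPM in aged sham 1 to 4 and at 119.9, 184, 138, 127, and 82.2 CPM in aged bleo 1 to 5. Mt2 was at 314, 291, 288, and 411 CPM in aged sham 1 to 4 and at 110.4, 204, 158, 90.4, and 80.3 CPM in aged bleo 1 to 5. In both genes aged sham 4 was highest, aged bleo 5 lowest, and aged bleo 2 the injured library nearest to aged sham, with no overlap between the groups. Mt1 fell from 359 ± 56.4 CPM (SD, n = 4) to 130.2 ± 36.6 CPM (SD, n = 5), a log2 fold change of -1.46 (SE 0.21, edgeR FDR 0.001), or 2.75-fold. Mt2 fell from 326 ± 57.8 CPM (SD, n = 4) to 129 ± 51.6 CPM (SD, n = 5), a log2 fold change of -1.34 (SE 0.27, edgeR FDR 0.006), or 2.54-fold. With 1 library left out at a time, the values were -1.62 to -1.33 for Mt1 and -1.57 to -1.21 for Mt2, all called. Because reads of the pair may not be separated, the counts of the 2 genes were also summed, and the sum gave a log2 fold change of -1.40 (FDR 0.003). The ratio of Mt1 to Mt2 FPKM was between 1.09 and 1.27 in aged sham and between 0.902 and 1.44 in aged bleo.

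**Figure D3:**
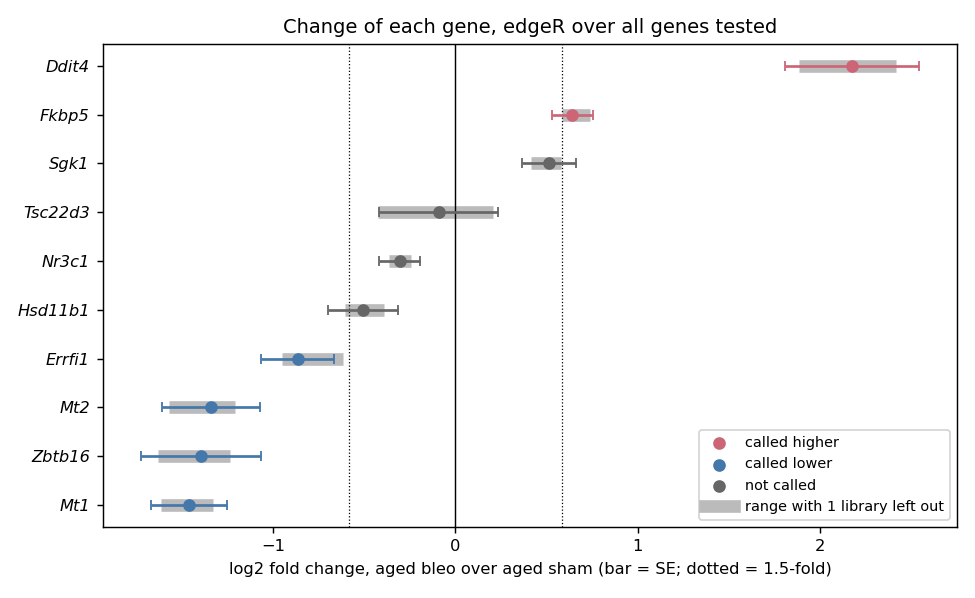
Log2 fold change of each gene in aged bleo over aged sham (points, with the SE as bars), ordered by size, with grey bands for the range when 1 library is left out and dotted lines at 1.5-fold. Ddit4 (2.17) and Fkbp5 (0.64) are called higher, Errfi1, Mt2, Zbtb16, and Mt1 (-0.87 to -1.46) lower, and the band of Tsc22d3 crosses 0 (-0.42 to 0.21).

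Per length, the metallothionein transcripts were the most abundant of the 10 in both groups. In aged sham, Mt1 had a mean of 278 FPKM and Mt2 of 245 FPKM, followed by Errfi1 at 64.6, Nr3c1 at 13.7, Hsd11b1 at 11.7, Sgk1 at 6.28, Tsc22d3 at 6.19, Ddit4 at 3.53, Fkbp5 at 3.50, and Zbtb16 at 2.86 FPKM. The ranges of neighbours overlapped except between Mt2 and Errfi1, Errfi1 and Nr3c1, and Hsd11b1 and Sgk1. In aged bleo, Mt1 (103 FPKM), Mt2 (98.6 FPKM), and Errfi1 (36.5 FPKM) kept the first places, and Ddit4 moved from the eighth to the fourth place with 16.5 FPKM. Nr3c1 (11.3), Sgk1 (9.22), Hsd11b1 (8.44), Tsc22d3 (6.03), Fkbp5 (5.61), and Zbtb16 (1.11 FPKM) followed. Here the ranges of neighbours were apart only between Mt2 and Errfi1 and between Fkbp5 and Zbtb16. Nr3c1 thus stood above Hsd11b1 in 3 of 4 aged sham libraries on the FPKM scale, and Ddit4 above Nr3c1 in 4 of 5 aged bleo libraries. Some neighbours were ordered by their means only. Sgk1 was above Hsd11b1 in 2 of 5 aged bleo libraries, and so was Tsc22d3 above Fkbp5. In aged sham, Ddit4 was above Fkbp5 in 2 of 4 libraries.

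**Figure D4:**
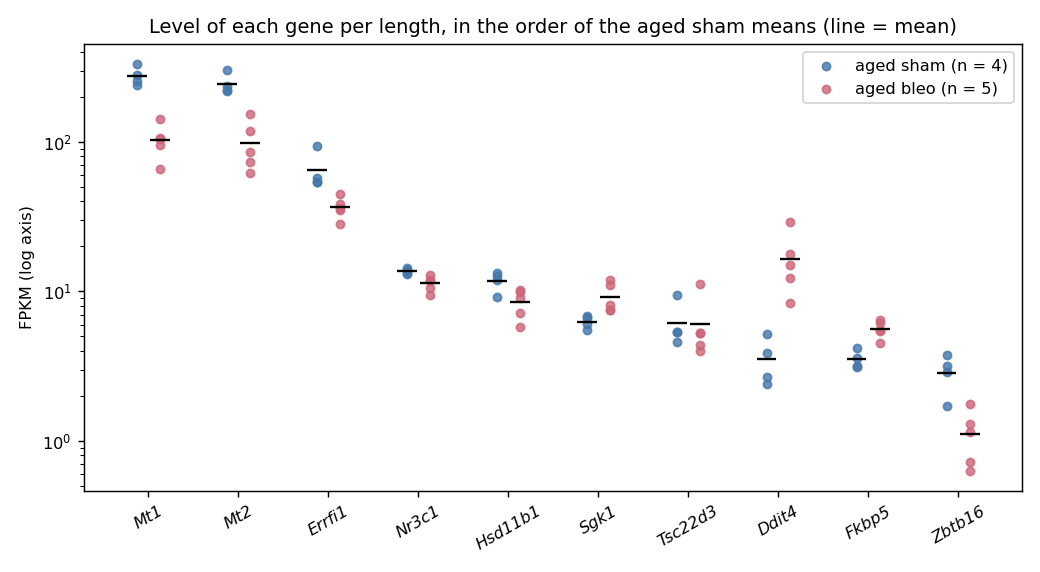
FPKM of the 10 genes on a log axis, in the order of their aged sham means; points are libraries (4 aged sham, 5 aged bleo) and lines are group means. Mt1, Mt2, and Errfi1 lead in both groups, and Ddit4 goes from 3.53 to 16.5 FPKM while Zbtb16 goes from 2.86 to 1.11 FPKM.

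Among the injured mice, aged bleo 4 had the highest aged bleo level of Fkbp5, Tsc22d3, Sgk1, Errfi1, and Ddit4 and the lowest of Nr3c1 and Hsd11b1. Aged bleo 2 had the highest level of Nr3c1, Hsd11b1, Zbtb16, Mt1, and Mt2 and the lowest of Fkbp5 and Ddit4. Deviations of log2 CPM from the group means were compared across the 9 libraries as a description, since the points share libraries and their cell makeup. They went together for Mt1 and Mt2 (r = 0.886), Nr3c1 and Mt2 (r = 0.828), Tsc22d3 and Errfi1 (r = 0.811), and Nr3c1 and Hsd11b1 (r = 0.738), and in opposite directions for Hsd11b1 and Ddit4 (r = -0.863) and Zbtb16 and Sgk1 (r = -0.821). By the same measure, the tested gene most like Nr3c1 was Fndc1 (r = 0.997), that most like Tsc22d3 was Pnpla7 (r = 0.986), and that most like Hsd11b1 was Zrsr1 (r = 0.985). The others were Magohb for Sgk1 (r = 0.982), Slc35g1 for Mt2 (r = 0.981), Fbxo41 for Zbtb16 (r = 0.975), Gjb5 for Ddit4 (r = 0.973), Xxylt1 for Fkbp5 (r = 0.964), Aatk for Mt1 (r = 0.961), and 2810474O19Rik for Errfi1 (r = 0.898). Each is the largest r among all genes tested, over only 9 libraries. A high value follows from that choice and is no measure of shared control.

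RefSeq start windows of 300 bases (250 before and 50 after the start) were matched by symbol for 8 of the 10 genes, in 16 windows, and not for Nr3c1 and Zbtb16. The half-site AGAACA or its reverse complement TGTTCT was in 4 of the 16 windows, 1 of Tsc22d3 and 3 of Sgk1, and in 19.0% of all 32851 windows. A response element with up to 2 of its 12 fixed bases differing, on either strand, was in 2 windows, both of Sgk1, and in 1.84% of all windows. The perfect element was in 3 of all windows, that of Sgk1 included. A metal response element core was in 5 windows, 1 each of Hsd11b1, Sgk1, Ddit4, Mt1, and Mt2, and in 25.7% of all windows, and 3 or more cores, as in Mt1 and Mt2, were in 1.97%. These matches are of letters only.

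The receptor works with chaperones that keep it folded and cofactors that act on chromatin. Of 11 genes for the mineralocorticoid receptor, chaperones, and cofactors, 1 was called lower and none higher (median log2 fold change 0.04). Over all genes tested, 11.5% were called lower and 12.3% higher. Nr3c2, the mineralocorticoid receptor, which also binds corticosterone, was the gene called, at 12.3 to 16.3 in aged sham and 3.67 to 12.1 CPM in aged bleo (log2 fold change -0.78, SE 0.28, edgeR FDR 0.057), without overlap. Its call was lost without aged sham 1 (FDR 0.119), aged sham 2 (0.118), aged sham 3 (0.101), or aged bleo 5 (0.113). Among genes under the fold threshold, the coactivator Ncoa2 had a log2 fold change of -0.51 (SE 0.11, FDR 0.007), the chaperones Hsp90ab1 and Stip1 had 0.31 and 0.36 (FDR 0.041 and 0.044), and the coactivator Ncoa1 had -0.33 (FDR 0.092). Fkbp4, the immunophilin that competes with FKBP51 for the receptor complex, had a log2 fold change of 0.04 (SE 0.11, FDR 0.79), beside 0.64 for Fkbp5.

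Of 8 genes that make, inactivate, or carry the hormone, 7 were tested (median -0.07). Beside 12.3% called higher and 11.5% lower over all genes tested, 1 of the 7 was called higher and 1 lower. Both were scarce: the steroid reductase Srd5a1 rose from 0.545 to 0.887 CPM in aged sham to 1.14 to 2.42 CPM in aged bleo (log2 fold change 1.33, SE 0.26, FDR 0.005), and the oxidase Cyp3a13 was at 0.614 to 1.15 in aged sham and 0.0915 to 0.409 CPM in aged bleo (log2 fold change -1.999, SE 0.44, FDR 0.009). With 5 to 57 counts per library, Cyp3a13 stood near the filter of a mean of 25 counts and was no longer tested without aged sham 3, without aged sham 4, or without both aged sham 4 and aged bleo 4. The steroid-exporting pump Abcb1a had a log2 fold change of -0.48 (FDR 0.006), under the fold threshold, with no overlap between the groups. Hsd11b2, which inactivates corticosterone, was at no more than 1.71 CPM in any library (FDR 0.45), and the steroid enzymes Srd5a3 (0.08, FDR 0.52) and Akr1c18 (-0.07, FDR 0.89) were not called. H6pd, which supplies the cofactor that Hsd11b1 needs, was at 327 to 342 in aged sham and 222 to 397 CPM in aged bleo (log2 fold change -0.01, FDR 0.96).

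A list of 20 other genes known to be induced by glucocorticoids leaned lower. Of the 19 tested, 4 were called higher and 10 lower, with a median log2 fold change of -0.59. In CPM, 2 lay wholly above and 11 wholly below aged sham. Over all genes tested, 12.3% were called higher and 11.5% lower, and 16.1% lay wholly above and 16.1% wholly below. This list was chosen with earlier results of these data known. The genes called lower were the cell cycle inhibitor Cdkn1c (-1.58), the transcription factors Cebpd (-1.36), Klf15 (-1.11), and Klf9 (-0.95), glutamine synthetase Glul (-1.32), the pyruvate dehydrogenase kinase Pdk4 (-0.90), the MAP kinase phosphatase Dusp1 (-0.86), the clock gene Per1 (-0.61), annexin A1 (Anxa1, -0.59), and Gadd45b (-0.59), with FDR values of 7.50e-04 to 0.056. Those called higher were Rgs2 (2.06), a regulator of G protein signalling, lipocalin 2 (Lcn2, 1.62), the lipase inhibitor Angptl4 (1.21), and the phosphoinositide 3-kinase subunit Pik3r1 (0.67). Glul went from 232 to 366 CPM in aged sham to 87.2 to 138 CPM in aged bleo, and Rgs2 from 29.6 to 59.4 CPM to 142 to 218 CPM. Of these calls, 4 stood near a threshold and were lost with single libraries left out. Per1 was lost without aged sham 1, 3, or 4 or aged bleo 1 or 5 (log2 fold changes -0.62 to -0.50). Gadd45b was lost without aged sham 2 or aged bleo 4 or 5 (-0.53 to -0.46), Anxa1 without aged sham 3 or 4 or aged bleo 1 or 3 (-0.58 to -0.52), and Angptl4 without aged sham 1, 2, or 3 (1.01 to 1.12). Not called were Sesn1 (-0.57, FDR 0.009, and called without aged sham 1 or aged bleo 1 or 2, at -0.63 to -0.61), Nfkbia (-0.52, FDR 0.033), Crispld2 (-0.70, FDR 0.101), and Lpin1 (-0.12, FDR 0.52).

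**Figure D5:**
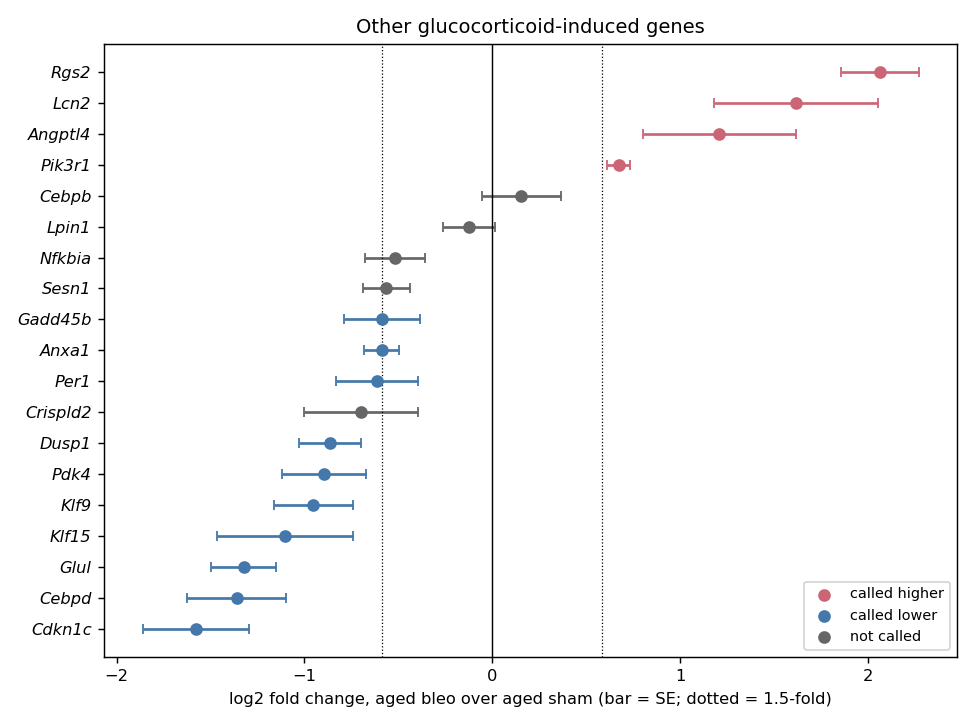
Log2 fold change (points, with the SE as bars) in aged bleo over aged sham of the 19 tested genes of a list of other glucocorticoid-induced genes, with dotted lines at 1.5-fold. Of these, 10 are called lower, down to -1.58 for Cdkn1c, and 4 higher, up to 2.06 for Rgs2. Over all genes tested, 11.5% are called lower and 12.3% higher.

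Genes of other programs fell in the same libraries. All 7 immediate early genes listed, which include Fos and Egr1, were called lower, with a summed level of 12801 to 16881 in aged sham and 4708 to 10509 CPM in aged bleo. Of 10 clock genes, Per1 among them, 6 were called lower and none higher (901 to 1176 in aged sham and 514 to 825 CPM in aged bleo). Among all genes tested, 11.5% were called lower and 12.3% higher. The time of day of the sorts is not given in the sources used here, and the part of either program in the induced list was not tested.

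Of 12 inflammatory genes that glucocorticoids are known to repress, 2 were called higher and 5 lower (median log2 fold change -0.53). The shares over all genes tested were 12.3% called higher and 11.5% called lower. Ptgs2, the inducible cyclooxygenase, fell from 948 to 1338 CPM in aged sham to 302 to 539 CPM in aged bleo (log2 fold change -1.50, SE 0.18, FDR 4.78e-04). Il6 (-1.48), Cxcl1 (-1.05), the adhesion molecule Icam1 (-1.01), and Ccl7 (-0.79) were also called lower. The cytokine Lif rose from 38.2 to 54.8 CPM to 147 to 315 CPM (log2 fold change 2.16, SE 0.24, FDR 2.86e-04). The nitric oxide synthase Nos2 rose from 0.0202 to 0.178 CPM to 0.480 to 1.80 CPM (3.12, SE 0.60, FDR 0.005). Nos2 was near the floor in aged sham, at 1 to 11 counts per library, and was highest in aged bleo 4. The calls of Icam1 (without aged sham 1 or 2, FDR 0.108 for both) and Ccl7 (without aged sham 1, aged bleo 1, or aged bleo 5, -0.76 to -0.54) were lost with single libraries left out. Tnf (0.95, FDR 0.17) was called without aged bleo 1 (1.16) and was at 0.29 (FDR 0.44) without aged bleo 4. Not called besides were Il1b (-1.02, FDR 0.31), Ccl2 (-0.27, FDR 0.55), and Vcam1 (0.17, FDR 0.60). Il1b and Tnf are made mostly by leukocytes. A list of 7 macrophage genes summed to 160 to 281 CPM in aged sham and 504 to 1556 CPM in aged bleo. Of these 7 genes, 5 were called higher, against 12.3% of all genes tested. The part of leukocyte transcripts in the levels of Il1b, Tnf, and Nos2 was not tested.

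The other genes of the metal response, which cover zinc transport and defence against oxidants, moved in both directions. Of 10 genes listed, 7 were tested, 2 called higher and 2 lower (median log2 fold change 0.36), beside 12.3% called higher and 11.5% lower over all genes tested. The zinc importer Slc39a14, also induced in inflammation, rose from 58.7 to 71.8 CPM to 170 to 229 CPM (log2 fold change 1.64, SE 0.10), and heme oxygenase Hmox1 rose by 0.63 on the log2 scale (SE 0.19, FDR 0.032), a call lost without aged sham 2 (0.58) or aged bleo 5 (0.43). The glutathione synthesis gene Gclc fell by 0.80 on the log2 scale (SE 0.14, FDR 0.003) and the importer Slc39a8 by 0.68 (SE 0.19, FDR 0.025), the latter not called without aged bleo 4 (-0.57). The zinc exporter Slc30a1, a direct MTF-1 target like Mt1 and Mt2, had a log2 fold change of 0.40 (SE 0.08, FDR 0.005) without overlap between the groups, under the fold threshold. The importer Slc39a10 was also under the fold threshold (0.36, FDR 0.015). Mtf1 itself was at 25.2 to 28.5 in aged sham and 25.04 to 29.6 CPM in aged bleo (0.04, FDR 0.72). The 2 other metallothionein genes, Mt3 and Mt4, were at no more than 0.110 CPM and were not tested.

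Of 14 genes for other known inputs and partners of Ddit4, Sgk1, and Errfi1, 3 were called higher and 1 lower (median -0.10). Among all genes tested, 12.3% were called higher and 11.5% lower. Of the EGF receptor ligands, Areg rose from 0.182 to 0.667 CPM in aged sham to 4.00 to 9.96 CPM in aged bleo (log2 fold change 4.14, SE 0.40, FDR 1.54e-04). Areg was scarce in aged sham, at 9 to 39 counts per library. Hbegf rose from 7.12 to 15.1 CPM to 16.1 to 34.5 CPM (1.14, SE 0.28, FDR 0.013). Hif1a, which encodes the oxygen-regulated factor, rose from 95.4 to 106 CPM to 150.2 to 237 CPM (0.91, SE 0.14, FDR 0.002). Its target Vegfa had a log2 fold change of 0.19 (FDR 0.25). Trib3, a target of the amino acid and stress response, fell by 1.03 on the log2 scale (SE 0.18, FDR 0.003), and Atf4, the factor of that response, had -0.55 (FDR 0.004), under the fold threshold except without aged sham 1 (-0.60). The EGF receptor gene Egfr was not called (-0.45, FDR 0.14). Nor were Tsc1 (-0.40, FDR 0.014), through whose complex REDD1 acts, and Mtor (-0.21, FDR 0.15). All of these are transcript levels, and their part in the levels of Ddit4, Sgk1, and Errfi1 was not tested.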

How the data were processed

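RNA-Seq was done on sorted lung fibroblasts of 4 aged sham and 5 aged bleo mice, grouped by their sample labels. The authors deposited raw read counts and FPKM values per gene in 1 table. Per the labels' processing notes, STAR 2.5.2b and featureCounts were among the tools. The build is not given in the sources used here and was taken as GRCm38, since 33497 of 42462 shared identifiers (78.9%) have their GENCODE M21 position. The deposited FPKM values are scaled to a library total 2.27 to 2.42 times the summed counts.

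Genes with a mean count of at least 25 were tested with edgeR 4.0.16 (R 4.3.3, TMM, quasi-likelihood, no covariate), where the study used a moderated test. DESeq2 1.42.0, limma 3.58.1, other normalizations and filters, stricter thresholds, and leaving out libraries were alternatives (leaving out aged bleo 4 and aged bleo 5 together was chosen after seeing the data), and the scripts were tested on simulated data. There, edgeR recovered 72% of 2-fold and 91% of 4-fold changes, with 12 false calls of 175. False calls were 60 of 241 for DESeq2 and 13 of 178 for limma. Replicates are separate mice as far as the labels say. Squared differences between counts of same-group libraries averaged 30.9 to 468 times those of sampling noise alone. A count of 3, the limit that a 0 allows, is 0.0409 to 0.0605 CPM, for counting error only.

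The members and lists were chosen with earlier results of these data known. Named were the 10 genes, the called genes of each of 6 lists with at most 4 others, sort markers, and the most similar gene to each member. Fkbp4, H6pd, and Vegfa were named for their roles, and Mt3, Mt4, Fos, Egr1, Laptm5, Sftpc, Ager, Lyz2, Csf3r, and S100a9 to identify list members, after their values were seen.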

Additional observations from a re-analysis of the deposited data

Results flagged for a closer look

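Of 96 groups of values, 6 had a highest or lowest library farther from the others than Dixon's 95% critical value, where chance gives about 1 in 20, and 3 of the 6 were among the 20 groups of the glucocorticoid response genes. Tsc22d3 was at 100.4 CPM in aged sham 4, with the nearest aged sham library at 55.3 CPM, and at 108.9 CPM in aged bleo 4, with the nearest aged bleo library at 54.8 CPM. Errfi1 was at 819 CPM in aged sham 4, with the nearest at 488 CPM, and its difference between the groups was called with and without that library. Cebpd was at 445 CPM in aged sham 4, with the nearest at 351 CPM. Tnf was at 1.08 CPM in aged sham 1, below the nearest at 1.63 CPM, and at 7.07 CPM in aged bleo 4, with the nearest at 2.58 CPM. Of the 6 values, 5 came from aged sham 4 or aged bleo 4 (the other from aged sham 1), the libraries with the most pan-leukocyte transcripts (376 and 577 CPM), and the part of these transcripts in the values was not tested.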

How the results depend on the processing

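The count of glucocorticoid response genes called was 6 to 7 with 1 library left out, 5 on log2(FPKM + 1) or without aged sham 4 and aged bleo 4 (Fkbp5 falling under the fold threshold), 4 at an FDR under 0.05 and a fold over 2, and 8 (Nr3c1, Hsd11b1, and Sgk1 gained, Errfi1 lost at -0.62, FDR 0.244) in a comparison, added after seeing the data, of the libraries whose names end in 4, in which aged bleo 4 alone stands for aged bleo and is assumed to vary like aged sham. Zbtb16, Ddit4, Mt1, and Mt2 were called under every alternative run. Tsc22d3 turned positive in the comparison of name endings (0.77), in the fit with the replicate number as a block (8.64e-04), and within the range with 1 library left out (-0.42 to 0.21), and was called in none. The count over all genes, 4022, was 1785 on log2(FPKM + 1), 6177 for the libraries whose names end in 4, 2158 at the stricter thresholds, and 3525 to 4597 with 1 library left out. Of the other induced genes, 7 were called at the stricter thresholds and 11 to 16 with 1 library left out, and of the hormone-handling genes 1 was called without aged sham 4 and aged bleo 4. The labels do not say whether equal replicate numbers mark pairs. Correlations of same-numbered deviations were -0.13 to 0.33, highest for number 4, and are too few to settle it. With replicate numbers as a block, 6 of the 10 genes, 12 other induced genes, and 3536 of all genes were called. The causes of these shifts were not tested, except that the stricter thresholds call fewer genes by construction. Genes near the 1.5-fold limit, such as Fkbp5, Sgk1, and Hsd11b1, are those whose call these 9 libraries settle least.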
